A study of Rattus norvegicus with 28 samples.

Results

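The 9 postsynaptic density scaffold genes Shank1, Shank2, Shank3, Dlg2, Dlg3, Dlg4, Dlgap1, Dlgap3 and Homer1 were followed in rat prefrontal cortex by RNA sequencing. They were taken by gene name from a count table of 36387 rows, in which they occupy 10 rows because Shank2 has 2 records. All 10 rows were among the 17404 genes with enough counts to be tested. Over 7 drug groups no member differed between groups after adjustment over all genes. Between single libraries, however, several members differed severalfold, and they did so together.

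The postsynaptic density is the protein layer under the membrane of excitatory synapses. The Dlg proteins bind glutamate receptors there, the Dlgap proteins link Dlg to Shank, and Shank proteins join Homer, which binds metabotropic glutamate receptors and calcium stores. Through these links the scaffold holds receptors in place in dendritic spines, and in cortex it is known for its part in synaptic plasticity. Psilocybin is the prodrug of psilocin, an agonist at serotonin receptors, and ketanserin is an antagonist at the serotonin receptor through which psilocin is known to act on cortical neurons.

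All animals were adult male Sprague-Dawley rats, 8 weeks old when they arrived. Each received 2 intraperitoneal injections, the first of ketanserin or its vehicle, 5% Tween-80, and the second of psilocybin or saline. Prefrontal cortex was taken 24 hours later, so that all groups share the double injection and the single time point. The vehicle group received both vehicles, 2 groups received psilocybin at 1 or 3 mg/kg after the Tween vehicle, 2 received ketanserin at 1 or 3 mg/kg before saline, and 2 received ketanserin and psilocybin together, each at 1 mg/kg or each at 3 mg/kg. Each group held 4 libraries, which the labels call biological replicates, 28 in all, made from poly-A RNA with a strand-marking protocol. The labels number no replicate, so the numbers below only name libraries. Whole tissue was measured, and fewer cells of a type cannot be told apart from less RNA per cell.

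The libraries held 12783067 to 18538414 counts. Markers of excitatory neurons were present in all 28 libraries (Slc17a7, the vesicular glutamate transporter of cortical excitatory neurons, 2100.0 to 2950.0 CPM, counts scaled to library size). Choroid plexus markers were near 0 (Ttr, 0 to 15.3 CPM), whereas vessel markers were present, with Flt1 at 40.2 to 69.4 and Pdgfrb at 35.6 to 52.2 CPM; of that list Cldn5 alone was listed at 0 in all 28. The summed oligodendrocyte markers, all 8 of 8 in the table, ranged from 2353 to 8723 CPM with overlapping group ranges, and the 8 striatal markers summed to 429.7 to 543.2 CPM. Library 4 of the group given both drugs at 3 mg/kg stood apart. Its median correlation with the other 27 was 0.867, whereas this value was 0.937 to 0.965 in those libraries. It also had the lowest total count and 19602 genes at 0, against 15344 to 16657 in the others. It is called the distant library here.

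Promoter windows were available for 6 of the members, 7 windows in all because Dlgap1 has 2 (RefSeq, GRCr8, 300 bases spanning the annotated start, printed 5′ to 3′). The windows of 4 genes are shown since their transcripts turned out to vary together or in opposite directions between libraries: Dlg2, Dlgap1 and Homer1 on one side and Dlg4 on the other. Capitals mark the only motif matches found in these 4 windows, an AP-1 site in Dlgap1 and a TATA box on the opposite strand in Homer1.
Dlg2 promoter (chr1:154539421-154539720, plus strand): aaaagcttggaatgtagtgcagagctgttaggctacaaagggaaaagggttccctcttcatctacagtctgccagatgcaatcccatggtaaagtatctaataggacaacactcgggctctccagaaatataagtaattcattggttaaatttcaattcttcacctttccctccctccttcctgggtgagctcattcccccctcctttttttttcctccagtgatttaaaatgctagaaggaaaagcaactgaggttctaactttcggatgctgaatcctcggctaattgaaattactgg
Dlgap1 promoter (chr9:117613834-117614133, plus strand): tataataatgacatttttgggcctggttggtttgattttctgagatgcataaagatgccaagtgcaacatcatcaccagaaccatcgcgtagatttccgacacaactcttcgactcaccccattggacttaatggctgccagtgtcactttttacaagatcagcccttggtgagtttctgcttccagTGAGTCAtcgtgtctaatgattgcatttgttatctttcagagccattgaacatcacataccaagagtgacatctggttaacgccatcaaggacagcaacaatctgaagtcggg
Homer1 promoter (chr2:26278762-26279061, plus strand): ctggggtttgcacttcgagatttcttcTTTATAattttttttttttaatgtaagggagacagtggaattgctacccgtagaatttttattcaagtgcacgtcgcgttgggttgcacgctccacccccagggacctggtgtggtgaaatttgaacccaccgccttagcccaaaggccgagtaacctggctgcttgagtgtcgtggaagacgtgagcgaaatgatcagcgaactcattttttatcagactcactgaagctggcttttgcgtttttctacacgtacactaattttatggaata
Dlg4 promoter (chr10:55239534-55239833, plus strand): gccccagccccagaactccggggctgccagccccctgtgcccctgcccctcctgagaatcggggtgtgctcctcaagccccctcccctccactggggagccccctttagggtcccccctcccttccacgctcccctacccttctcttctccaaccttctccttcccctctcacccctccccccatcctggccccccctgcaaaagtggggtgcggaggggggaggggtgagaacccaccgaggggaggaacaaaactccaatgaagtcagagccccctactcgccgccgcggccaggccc

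Base composition differed among these windows. Dlg2 had 42.3% G and C, the Dlgap1 window shown 43.3% and Homer1 44.7%, against 68.7% in Dlg4; the median over 33469 rat windows was 51.7%. The other windows had 54.0% in Dlgap3, 56.3% in Shank3 and 39.0% in the other Dlgap1 window. Motifs were searched on both strands, and the set was chosen after the expression values were known. AP-1 (TGAGTCA) occurs in 4.63% of all windows and among the members in the Dlgap1 window shown, at positions 188 to 194 from its 5′ end. The TATA box (TATAAA) occurs in 14.2% of windows, and among the members in Homer1 and in the other Dlgap1 window. The cyclic AMP response element (TGACGTCA, 1.83% of windows), its core (TGACG, 21.2%), the GC box (GGGCGG, 33.1%) and the E-box (CACGTG, 6.42%) matched in none of the 7 windows. These matches describe letters only.

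Levels can be compared between genes per gene length, for which the authors' FPKM values were used (fragments scaled to gene length and library size). Dlg4, which encodes PSD-95, was highest at 388 ± 47.6 FPKM (SD over 28 libraries), and it exceeded Dlgap3, the next in order, in 28 of 28 libraries; in the distant library alone Shank1, at 450.0, was above Dlg4, at 355. Dlgap3 (200 ± 33) and Shank1 (194 ± 56.2) followed, and their order was not fixed, with Dlgap3 above Shank1 in 19 of 28 libraries. Dlgap1 (54.5 ± 16.7) and Shank3 (52.3 ± 11.3) again did not differ beyond their spread, Dlgap1 being the higher in 15 of 28. Dlg3 stood at 31.1 ± 2.34 FPKM and Dlg2 at 21.6 ± 10.4, with Dlg3 higher in 25 of 28 libraries. Homer1 had 9.16 ± 4.34 and the main Shank2 record 3.24 ± 0.711 FPKM, in that order in 28 of 28 libraries, although their ratio came down to 1.01 in 1 of them.

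**Figure D1:**
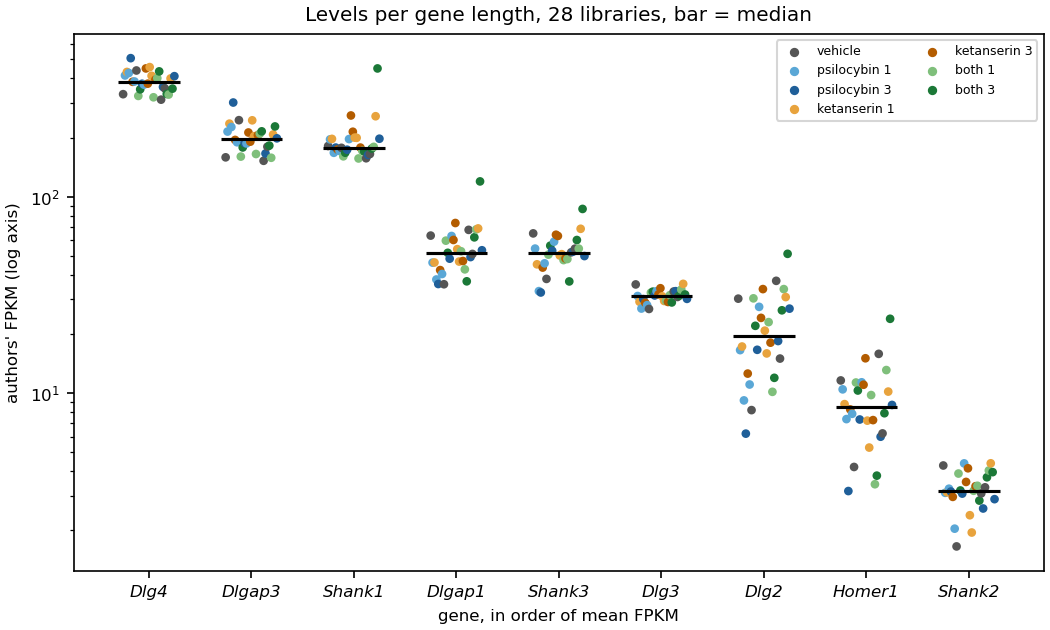
Authors' FPKM (log axis) of the 9 genes in each of 28 libraries, coloured by group, with a bar at the median. Dlg4 is the highest in every library except the distant one, where Shank1 (450.0) is above it (355); Dlg2 and Homer1 spread most among the 9.

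The members differed in how far libraries of the same group lay apart. Within groups the SD of log2 CPM was 0.777 for Dlg2 and 0.717 for Homer1. These values were larger than in 86.7% and 84.5% of the 15473 tested genes averaging 0 or higher in log2 CPM. The SD was 0.122 for Dlg3 and 0.155 for Dlg4, larger than in 6.06% and 14.2% of the same genes. Dlgap1 (0.402), Shank2 (0.367), Shank3 (0.33), Shank1 (0.30) and Dlgap3 (0.22) lay between. So in the same libraries one Dlg paralog was among the steadier transcripts and another among the more variable.

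Dlg4, the receptor anchor of mature excitatory synapses, was at 1093, 1429.8, 1016 and 1158 CPM in the 4 vehicle libraries. After psilocybin Dlg4 was at 1352, 1391, 1257 and 1212 CPM at 1 mg/kg and 1656, 1221, 1178 and 1342 at 3 mg/kg. With ketanserin Dlg4 was at 1403, 1478, 1339.6 and 1307 CPM at 1 mg/kg and 1251, 1467, 1233 and 1279 at 3 mg/kg. Every group given 1 drug overlapped vehicle, whose second library was itself high. Dlg4 was at 1068, 1048, 1304 and 1082 CPM with both drugs at 1 mg/kg and 1152, 1399.8, 1091 and 1136 at 3 mg/kg. The 4 libraries with both drugs at 1 mg/kg all lay below the 4 with ketanserin alone at 1 mg/kg, by a narrow margin in the third library.

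Dlg2, a paralog that also binds glutamate receptors, was at 77.9, 20.9, 95.3 and 38.3 CPM with vehicle, so that the control group alone spanned most of the range seen. With psilocybin Dlg2 was at 42.3, 23.5, 28.3 and 70.3 CPM at 1 mg/kg and 15.9, 42.3, 47.0 and 68.9 at 3 mg/kg. With ketanserin it was at 44.0, 52.7, 40.5 and 79.0 CPM at 1 mg/kg and 32.1, 61.8, 87.0 and 46.0 at 3 mg/kg. Both drugs gave 78.0, 58.9, 25.8 and 86.7 CPM at 1 mg/kg and 56.4, 30.2, 67.7 and 128 at 3 mg/kg, the last from the distant library. Low and high libraries occurred in each group, and all 7 groups overlapped. Without the distant library Dlg2 still spanned 5.99-fold. Dlg3, the third paralog measured, spanned only 1.35-fold over the same 27 libraries, from 164 to 221 CPM, and its group means lay between 183 ± 17.2 (SD, psilocybin 1 mg/kg) and 195 ± 10.9 CPM (both drugs at 1 mg/kg).

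Dlgap3, a linker between Dlg and Shank, was at 596, 913, 567 and 669 CPM in vehicle libraries. Values of 801, 844, 705 and 695 CPM were found with psilocybin at 1 mg/kg and 1125, 697, 617 and 740.3 at 3 mg/kg. Ketanserin gave 875, 905, 754 and 774 CPM at 1 mg/kg and 724, 791, 714 and 763 at 3 mg/kg. With both drugs Dlgap3 was at 599, 616, 778 and 589 CPM at 1 mg/kg and 666, 792, 680.4 and 833 at 3 mg/kg. Its high libraries were largely those in which Dlg4 was high, among them the second vehicle library and the first with psilocybin at 3 mg/kg. Dlgap1, the other linker, behaved differently. It ranged from 179 to 369 CPM in 27 libraries and reached 587 in the distant one, and it was lowest in the second vehicle library, where Dlgap3 was high.

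Among the Shank genes, whose products form the deep layer of the scaffold, Shank1 was at 1399, 1357, 1201 and 1261 CPM with vehicle. Ketanserin libraries held 1504, 1519, 1522 and 1972 CPM of Shank1 at 1 mg/kg and 1329.5, 1986, 1649 and 1356 at 3 mg/kg. Both drugs gave 1236, 1202, 1306 and 1377 CPM at 1 mg/kg and 1287, 1286, 1351 and 3383 at 3 mg/kg. All 4 libraries with ketanserin at 1 mg/kg were above all 4 vehicle libraries, and the distant library held more Shank1 than any other. With psilocybin Shank1 stayed between 1248 and 1515 CPM over 8 libraries. Shank3 ranged from 172 CPM in the first library with psilocybin at 3 mg/kg to 449 in the distant library, and the main Shank2 record from 16.2 to 43.0 CPM. The second Shank2 record held 232 counts over all libraries, with 0 in 8 of them, so its fold changes rest on few counts. No source used here says how reads were divided between the 2 Shank2 records.

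Homer1, the adaptor at the end of the chain, had the lowest CPM after Shank2's second record and varied as Dlg2 did. It was at 25.9, 9.30, 35.1 and 13.8 CPM with vehicle. Psilocybin libraries held 23.2, 16.3, 17.4 and 25.1 CPM of Homer1 at 1 mg/kg and 7.03, 16.2, 13.2 and 19.3 at 3 mg/kg. Ketanserin libraries held 19.4, 15.9, 11.6 and 22.6 CPM at 1 mg/kg and 18.2, 24.4, 33.5 and 16.1 at 3 mg/kg. The 4 libraries with psilocybin at 3 mg/kg were all below 20 CPM, but so were 2 of the 4 vehicle libraries. With both drugs Homer1 was at 25.2, 21.7, 7.58 and 29.1 CPM at 1 mg/kg and 22.9, 8.31, 17.5 and 51.9 at 3 mg/kg, the highest again being the distant library. One count per gene is deposited, so the short activity-induced form of Homer1 and the long forms were not separated.

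**Figure D2:**
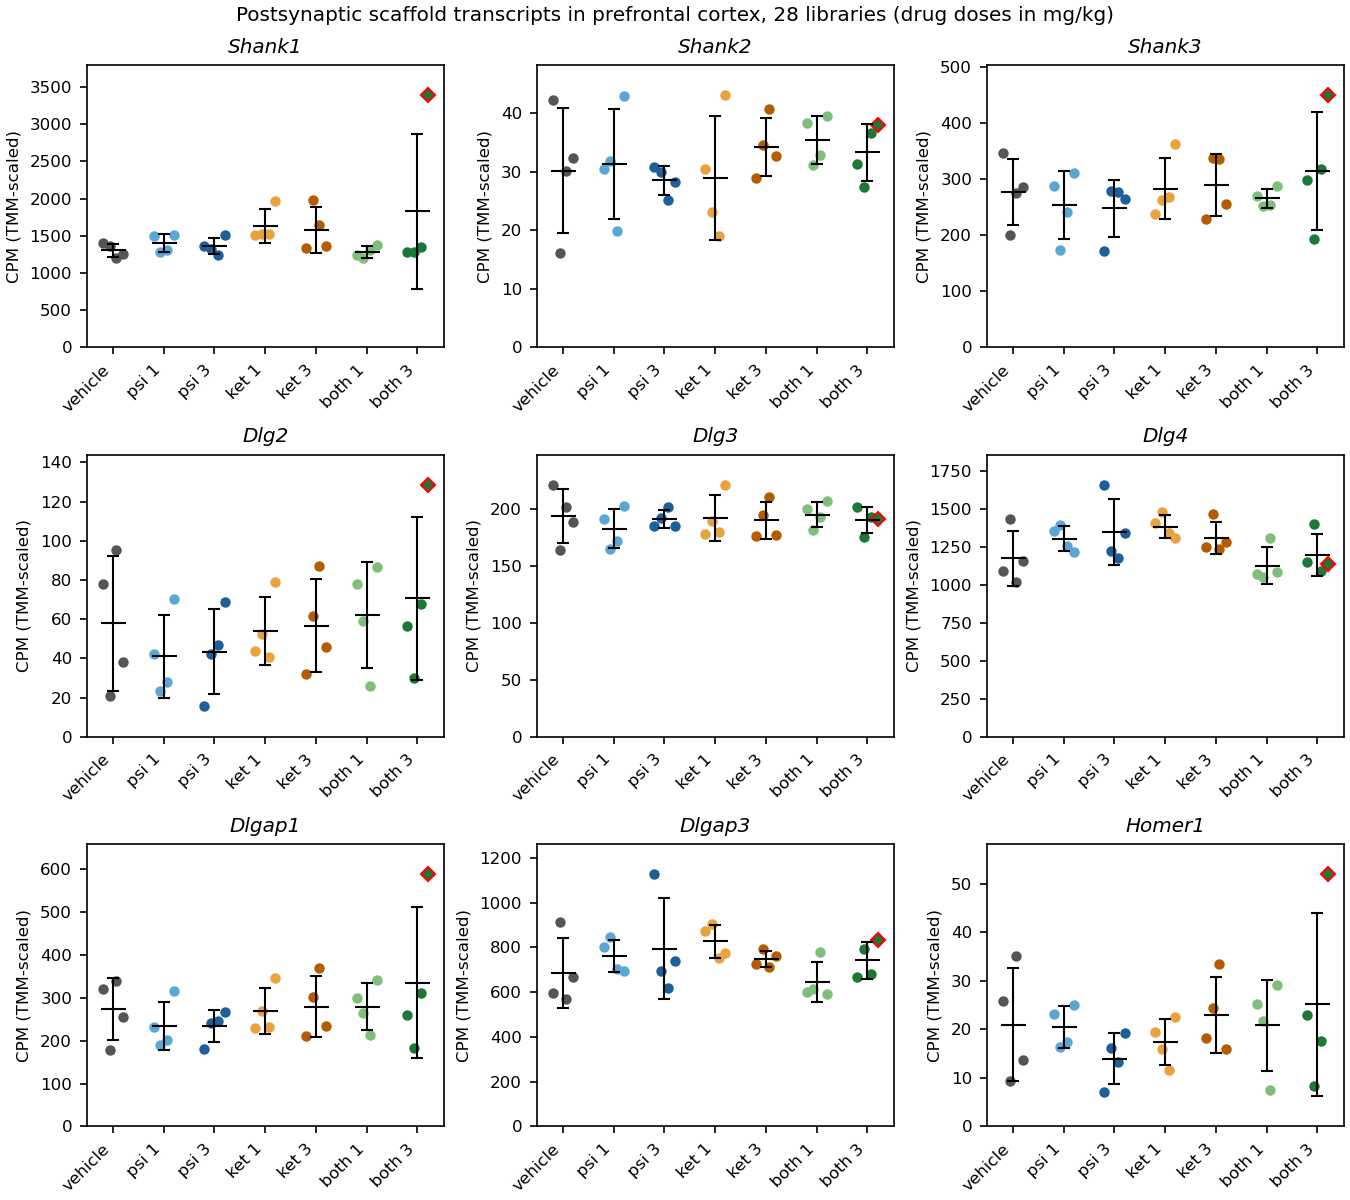
CPM of each member in each library by group (points; red-edged diamond, the distant library), with mean and SD over 4 libraries; psi is psilocybin and ket is ketanserin. The groups overlap in nearly all panels, and the distant library is highest for Shank1, Shank3, Dlg2, Dlgap1 and Homer1.

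Psilocybin was compared with vehicle first. At 1 mg/kg 0 of the 10 records differed (edgeR quasi-likelihood test, adjusted p = 1 for every record), as did 0% of all tested genes. The log2 fold change was 0.15 (95% interval -0.08 to 0.38) for Dlg4 and -0.50 (95% interval -1.53 to 0.53) for Dlg2. One record, the second of Shank2, had an unadjusted p under 0.05, where 1.66% of genes did, with a value of -3.72 (95% interval -7.04 to -0.40) that rests on its few counts. At 3 mg/kg again 0 records and 0% of genes were called, and 0 records against 3% of genes reached an unadjusted p under 0.05. Homer1 had the value farthest from 0 among the 9 main records, -0.59 (95% interval -1.55 to 0.37), and it ran from -0.82 without the second vehicle library to -0.22 without the third. No member's groups were separate at either dose, where 1.36% of genes at 1 mg/kg and 2.11% at 3 mg/kg had 4 libraries all above or all below vehicle. Dlg3 had the narrowest interval at 3 mg/kg, -0.02 (95% interval -0.21 to 0.17), whereas that of Dlg2, -0.42 (95% interval -1.44 to 0.61), includes changes of more than 1 log2 unit.

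Ketanserin alone gave 0 called records at 1 mg/kg, with 0% of genes called. Dlg4 was the 1 record with an unadjusted p under 0.05 (2.06% of genes), at a log2 fold change of 0.23 (95% interval 0.00 to 0.47) (adjusted p = 1, edgeR). Shank1, at 0.32 (95% interval -0.11 to 0.75), was the 1 member whose groups did not overlap, which held for 1.87% of genes. Leaving out the second vehicle library moved the Dlg4 value to 0.36 and leaving out the third moved it to 0.18. At 3 mg/kg there were 0 called records and 0% of genes. Here 0 records reached an unadjusted p under 0.05 against 2% of genes, and 0 had separate groups against 1.7%. Dlg4 was at 0.16 (95% interval -0.08 to 0.39) and Shank1 at 0.28 (95% interval -0.16 to 0.71). The Dlg4 value ran from 0.09 without the second library with ketanserin at 3 mg/kg to 0.28 without the second vehicle library.

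The combination at 1 mg/kg lay close to vehicle for most members. Its log2 fold changes ran from -0.09 for Dlgap3 to 0.23 for Shank2 among the 9 main records, with 0 called records and 0% of genes. Likewise 0 records reached an unadjusted p under 0.05 (1.3% of genes) and 0 had separate groups (1.32%). With both drugs at 3 mg/kg, 0 records were called against 0.00575% of genes, which is 1 gene. Shank1 was the 1 record with an unadjusted p under 0.05 (3.13% of genes), at 0.49 (95% interval 0.05 to 0.92) (adjusted p = 0.999, edgeR), but its groups overlapped, as did those of every record (1.14% of genes did not). Without the distant library the Shank1 value was 0.01 (adjusted p = 1, edgeR), and those of Homer1, Dlg2 and Dlgap1 went from 0.26 to -0.37, from 0.28 to -0.17 and from 0.30 to -0.12.

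**Figure D3:**
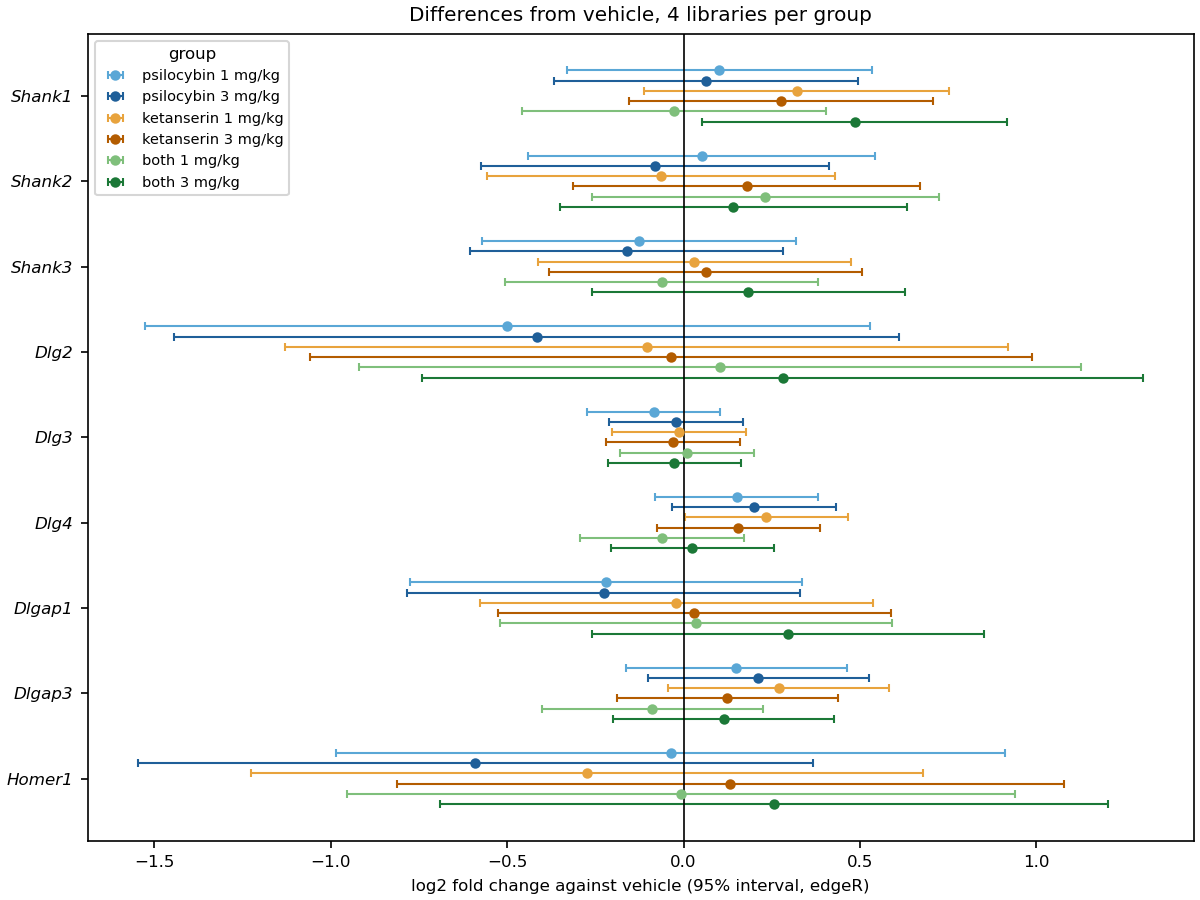
Log2 fold change of the main record of each of the 9 genes against vehicle (points, edgeR; the second Shank2 record is not drawn) with 95% intervals for the 6 drug groups, 4 libraries per group. Of those drawn, only the intervals of Shank1 with both drugs at 3 mg/kg and of Dlg4 with ketanserin at 1 mg/kg exclude 0, and neither passed adjustment over 17404 genes; the intervals of Dlg2 and Homer1 are the widest.

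Adding ketanserin to psilocybin was examined by setting the combination beside psilocybin at the same dose. At 1 mg/kg 0 records and 0% of genes were called, and 0 records reached an unadjusted p under 0.05 against 4.13% of genes. Dlg4 was at -0.21 (95% interval -0.44 to 0.02). At 3 mg/kg 0 records and 0% of genes were called, and 0 records against 5.74% of genes reached an unadjusted p under 0.05. Homer1, at 0.85 (95% interval -0.11 to 1.81), and Dlg2, at 0.70 (95% interval -0.33 to 1.73), had the values farthest from 0 among the main records, and in both the distant library was the highest of the combination. Without it these values were 0.22 for Homer1 and 0.24 for Dlg2.

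The combination was also set beside ketanserin alone. At 1 mg/kg 0 records and 0% of genes were called. Dlg4, at -0.30 (95% interval -0.53 to -0.06) (adjusted p = 1, edgeR), and Dlgap3, at -0.36 (95% interval -0.67 to -0.04) (adjusted p = 1, edgeR), were the 2 records with an unadjusted p under 0.05, where 2.92% of genes had one. Dlg4 and Shank1 (-0.35) were the 2 records whose groups did not overlap, against 3.13% of genes. When libraries were weighted by quality (limma voom), Dlg4 was called in this comparison at -0.36 (adjusted p = 0.0478). It was the 1 record of 10, against 21 of 17404 genes called in all. At 3 mg/kg 0 records and 0% of genes were called and 0 records against 3.41% of genes reached an unadjusted p under 0.05, with Dlg4 at -0.13 (95% interval -0.36 to 0.10).

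Dose made no called difference to any record. Psilocybin at 3 against 1 mg/kg gave 0 called records (0% of genes) and 0 at an unadjusted p under 0.05 (3.24%), with Homer1 at -0.55 (95% interval -1.51 to 0.40). Ketanserin gave 0 (0%) and 0 (1.64%) in the same way, with Dlg4 at -0.08 (95% interval -0.31 to 0.15). For the combination 0 records and 0% of genes were called, and Shank1 was the 1 record with an unadjusted p under 0.05 (3.3% of genes), at 0.51 (95% interval 0.08 to 0.95); without the distant library it was at 0.03.

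The interaction asks whether the combination differs from the sum of the effects of each drug alone. At 1 mg/kg it was -0.45 (95% interval -0.77 to -0.12) for Dlg4 on the log2 scale (adjusted p = 0.938, edgeR) and -0.51 (95% interval -0.95 to -0.06) for Dlgap3 (adjusted p = 0.938, edgeR). Both genes had means above vehicle with each drug alone and below vehicle with the pair. These were the 2 records with an unadjusted p under 0.05, where 4.09% of genes had one, and 0 records and 0% of genes were called. At 3 mg/kg Dlg4 was again negative, -0.33 (95% interval -0.66 to -0.00) (adjusted p = 0.993, edgeR), the 1 record at an unadjusted p under 0.05 (3.2% of genes), with 0 records and 0% of genes called; without the distant library the value was -0.31 (adjusted p = 1, edgeR). It was -0.21 without the first library with psilocybin at 3 mg/kg (adjusted p = 1) and -0.45 without the second vehicle library (adjusted p = 0.744, edgeR). The interactions at the 2 doses share the vehicle libraries. Under voom with quality weights the interaction at 1 mg/kg was called for Dlg4 (-0.57, adjusted p = 0.0121) and Dlgap3 (-0.65, adjusted p = 0.013). That made 2 of the 10 records, against 1200 of 17404 genes called in all. In that setting the second vehicle library, where both genes were high, had a weight of 0.284.

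Pooling the doses changed little. Psilocybin at either dose gave 0 called records (0% of genes) and 1 at an unadjusted p under 0.05 (1.96%), the second Shank2 record; Dlg4 was at 0.18 (95% interval -0.03 to 0.38). Ketanserin at either dose gave 0 called (0%) and 0 at an unadjusted p under 0.05 (2.1%), with Dlg4 at 0.20 (95% interval -0.01 to 0.40); without the second vehicle library it was at 0.32 (adjusted p = 0.986, edgeR). For the combination 0 records were called against 0.00575% of genes, and 0 against 1.8% reached an unadjusted p under 0.05, with Dlg4 at -0.02 (95% interval -0.22 to 0.18). In the test of any difference among the 7 groups, 0 records were called against 0.0172% of genes, and 0 against 2.22% had an unadjusted p under 0.05; the smallest p among the members was 0.108, for Dlg4 (adjusted p = 1, edgeR).

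Across the 28 libraries the members fell into 2 opposed sets. Dlg2 and Dlgap1 varied together, with a Pearson r of 0.93 (Spearman rho 0.959, adjusted p = 6e-05 over 36 pairs, permutation test), and Dlg2 with Homer1 had r = 0.867, Dlgap1 with Shank3 0.887 and Dlg2 with Shank3 0.84. Dlg4 and Dlgap3 formed the other set, at r = 0.90 (rho 0.887, adjusted p = 6e-05, permutation test). Dlg2 and Dlg4, paralogs with like binding partners, were opposed at r = -0.647 (rho -0.591, adjusted p = 0.00078, permutation test). In all, 31 of 36 pairs had an adjusted p under 0.05, 20 of them positive and 11 negative, with 100000 permutations of two-sided tests, whose smallest possible p is 1e-05. All 9 genes share each library's depth and composition, and such relations were widespread. Among pairs of 8001 well-expressed genes (mean log2 CPM 4 or above) 34.7% had an r of 0.5 or more in size, against 63.9% of member pairs. At 0.8 or more the shares were 6.45% and 16.7%. The share of all gene pairs passing the permutation test was not computed, so the count of 31 has no background of its own.

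These relations were also present within groups. Taken as deviations from the group means, 30 of the 31 pairs were kept, with Dlg2 and Dlg4 at r = -0.728. Leaving out the 2 libraries farthest from the median of the first gene kept 22 of them, with Dlg2 and Dlgap1 at 0.955, Dlg4 and Dlgap3 at 0.854, and Dlg2 and Dlg4 at -0.548. The pairs of Shank1 with Dlgap1, Homer1 and Dlg2 rested on the distant library: Dlgap1 with Shank1 went from r = 0.656 to 0.368 without it, Homer1 with Shank1 from 0.48 to 0.242, and Dlg2 with Shank1 from 0.453 to 0.28. The pairing of Dlg4 with Dlgap3 was closer without that library (r = 0.95).

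**Figure D4:**
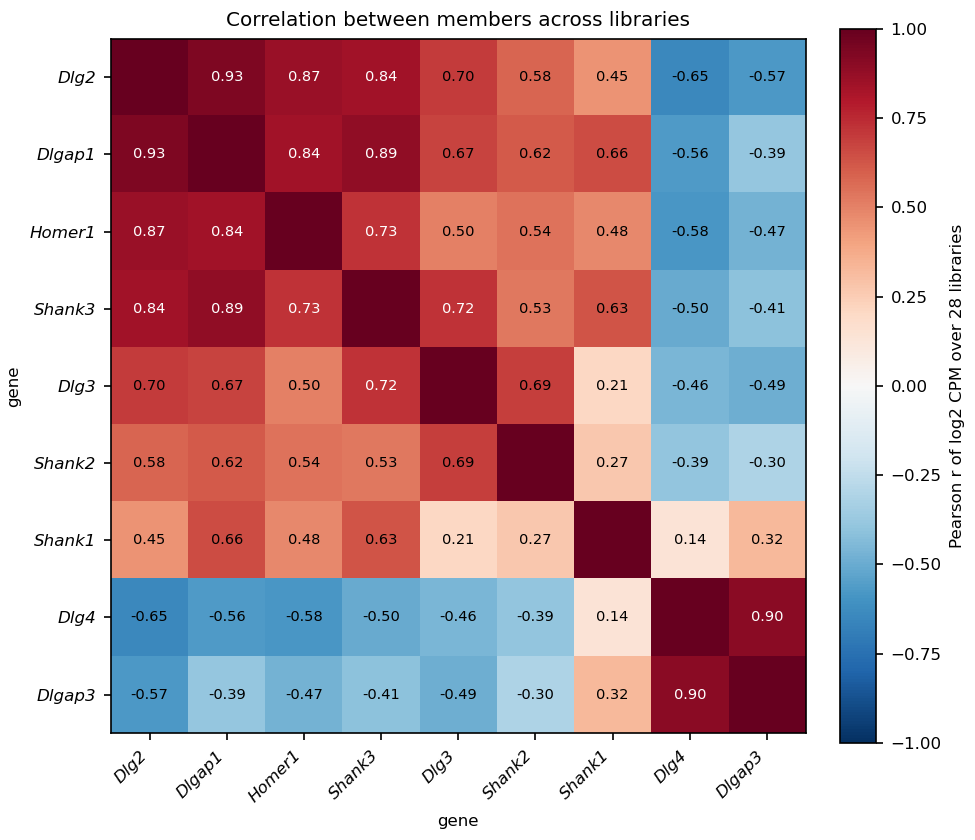
Pearson r of log2 CPM over 28 libraries for each pair of members (colour and number). Dlg2, Dlgap1, Homer1, Shank3, Dlg3 and Shank2 are positive with each other, and Dlg4 and Dlgap3 are positive with each other and negative with those 6.

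A property of the whole library moved with both sets. For each library the deviation of every tested gene from its mean was correlated with gene length, and this rho ran from -0.328 to 0.275. Libraries with higher values, in which long genes were relatively high, held more Dlg2 (r = 0.921, rho 0.939), Dlgap1 (0.915), Homer1 (0.846), Shank3 (0.83), Dlg3 (0.78) and Shank2 (0.698), and less Dlg4 (-0.676) and Dlgap3 (-0.596). The adjusted p over 45 relations was 3.75e-05 for Dlg2 and 0.00162 for Dlgap3 (permutation test). After the 2 most extreme libraries were left out, r over all 45 relations still reached from -0.92 to 0.951 and 27 kept an adjusted p under 0.05. Of the 9 genes 8 had an r beyond 0.5 in either direction, and so did 45.8% of all 17404 genes. Dlg2 and Dlgap1 lay at the edge of that distribution, with 0.511% and 0.73% of genes above them.

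The set to which a gene belonged did not follow the exon length in the table. Dlg2 (2531 bases) and Homer1 (2193) are shorter there than Dlg4 (3226) and Dlgap3 (3688). The genomic spans in the table's coordinates were ordered otherwise, at 717 kb for Dlg2, 572 kb for Dlgap1, 442 kb for Shank2 and 100 kb for Homer1, against 46.8 kb for Dlgap3 and 26.2 kb for Dlg4. Shank3 (58.3 kb) and Dlg3 (52.0 kb) had spans close to that of Dlgap3 and yet belonged to the opposite set. Over the 9 genes the rank correlation of r with span was 0.90 and with table length -0.30, given as a description of 9 genes that share the same libraries. Shank1, with a span of 47.2 kb, was intermediate (r = 0.414, and 0.286 without the distant library).

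The extremes show the size of this variation. In the library with the lowest length rho, the first with psilocybin at 3 mg/kg, Dlg4 was at 507 FPKM and Dlg2 at 6.21, a ratio of 81.7. At the other end, in the distant library, Dlg4 was at 355 and Dlg2 at 51.2 FPKM, a ratio of 6.94. The median ratio was 20.8, and by comparison Dlg4 over Dlgap3 ranged only from 1.56 to 2.18. These ratios were chosen after the values were seen. The same 2 libraries were the extremes of the neuronal marker sums: excitatory neuron markers summed to 8729 CPM in the first and 4327 in the distant library, and interneuron markers to 1288 and 722 CPM. Astrocyte markers (1701 CPM) and vessel markers (155.9 CPM) were highest in the distant library. The mitochondrial share of counts, 6.98% to 11.65% over the libraries, moved the opposite way (Dlg2 r = -0.818, Dlg4 0.669), as did the mean deviation of ribosomal protein genes (Dlg2 -0.90, Dlg4 0.592). Oligodendrocyte markers were related to Dlg3 (r = -0.635) and Shank3 (-0.429) and not detectably to Dlg2 (-0.302, adjusted p = 0.152, permutation test). Striatal markers were related to Dlgap3 (r = 0.444, adjusted p = 0.0281, permutation test; r = 0.421 without the distant library) and to Shank1 (r = 0.422; 0.289 without it). The part of these properties and markers in the members' levels was not tested beyond a length term in the model.

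**Figure D5:**
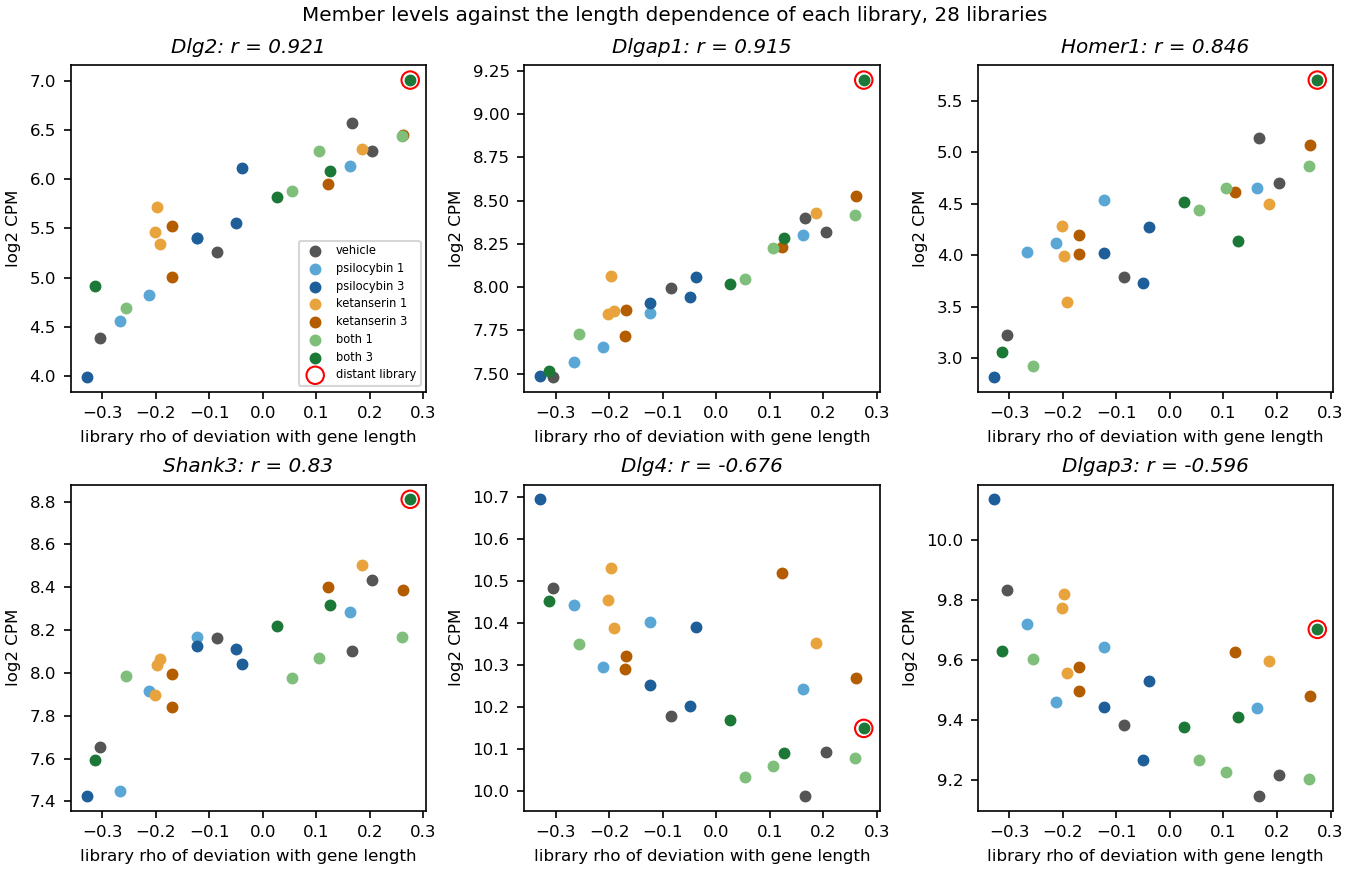
Log2 CPM of 6 members against each library's rho of deviation with gene length, coloured by group, with the distant library ringed and r over 28 libraries in each title. Dlg2, Dlgap1, Homer1 and Shank3 climb from left to right and Dlg4 and Dlgap3 descend, and all groups except psilocybin 3 mg/kg have libraries on both sides of 0.

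The length rho overlapped between groups, from -0.304 to 0.204 with vehicle and from -0.328 to -0.0384 with psilocybin at 3 mg/kg, the group with the lowest mean. With this value added to the model, a step chosen after seeing the data, the 95% interval of Dlg2 against vehicle narrowed from about 1.03 to 0.395 log2 units on either side at psilocybin 1 mg/kg. Still 0 records were called in any of the 19 comparisons. Dlg4 kept its direction in the interaction at 1 mg/kg, at -0.33 (adjusted p = 0.913, edgeR). Homer1 with psilocybin at 3 against 1 mg/kg was at -0.54 (adjusted p = 0.798, edgeR), against -0.55 without the term. Without the term it moved to -0.33 when the first library with psilocybin at 3 mg/kg was left out and to -0.75 when the fourth was. In that interaction at 1 mg/kg Homer1 itself turned from 0.30 to -0.74 (adjusted p = 0.92, edgeR). Its 95% interval, 0.723 log2 units on either side, excludes 0. With the term, Shank1, Dlg4, Dlgap3 and Homer1 had an unadjusted p under 0.05 there, as did 939 of 17404 genes. For the combination against ketanserin at 1 mg/kg Shank1, Shank3, Dlg4 and Dlgap3 did, against 847 genes. No other comparison had more than 2 such records.

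The rest of the scaffold and the proteins bound to it were examined through 2 lists. Of 30 other scaffold genes all 30 were tested. The second list held 19 genes of bound proteins (receptors, channels, adhesion proteins and a few others), of which 18 were tested. In each of the 19 comparisons 0 of them were called in either direction. The median log2 fold change of the other scaffold genes was -0.03 with psilocybin at 3 mg/kg, 0.06 with ketanserin at 1 mg/kg and 0.13 with both drugs at 3 mg/kg, against -0.01, -0.02 and -0.02 over all tested genes. For the bound proteins these medians were -0.06, 0.09 and 0.13. Over 18 comparisons the medians ran from -0.04 to 0.20 for the scaffold genes and from -0.12 to 0.26 for the bound proteins. Both were highest for the combination against psilocybin at 3 mg/kg, with the distant library included.

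Named by the smallest p for any group difference, the genes of these lists were Ppp1r9b, Homer3 and Agap2 among scaffolds and Cacng2, Grin2b and Cacng8 among bound proteins. Cacng2, the AMPA receptor auxiliary subunit stargazin, had the smallest (adjusted p = 1, edgeR). Its mean was 70.5 ± 4 CPM (SD, n = 4) with vehicle, 92.8 ± 11.1 and 95.1 ± 13.9 with ketanserin at 1 and 3 mg/kg, and 101 ± 46.0 with both drugs at 3 mg/kg, which was 78.1 ± 1.99 (n = 3) without the distant library. Grin2b, an NMDA receptor subunit bound by Dlg proteins, was at 22.02 ± 9.06 CPM with vehicle and 48.7 ± 46.9 with both drugs at 3 mg/kg, or 25.3 ± 4.18 (n = 3) without the distant library. Ppp1r9b, the spine protein spinophilin, was at 1532 ± 306 CPM with vehicle, 1904 ± 77.6 with ketanserin at 1 mg/kg and 1441 ± 125 with both drugs at 1 mg/kg. Its interaction at 1 mg/kg was -0.55 (adjusted p = 0.938, edgeR). Homer3, a paralog of Homer1, was at 17.7 ± 2.90 CPM with vehicle, 20.9 ± 2.35 with psilocybin at 3 mg/kg and 15.0 ± 4.84 with both drugs at that dose (17.3 ± 1.37 without the distant library). Agap2 was at 1904 ± 135 CPM with vehicle and 2181 ± 69.4 with ketanserin at 1 mg/kg, and Cacng8 at 122 ± 23.0 and 144.5 ± 6.47 CPM.

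The genes most like each member over the 28 libraries were found among 14134 candidates by Pearson r. For Dlg2 they were Zfp106 (0.985), Trim44 (0.983) and Adcy1 (0.982), for Dlgap1 Spock1 (0.963), Usp31 (0.959) and Larp1 (0.958), and for Homer1 Dnm1l (0.969), Camta1 (0.959) and Pex5l (0.953). Shank3 had Cacna1i (0.962), Camk2a (0.956) and Adgrl1 (0.956). Dlg4 was closest to Dmwd (0.958), Agap3 (0.95) and Jund (0.949), and Dlgap3 to Cdk5r2 (0.961), Lrrc4b (0.937) and Cacnb1 (0.928). The members themselves were left out of the candidates, so none could be named here. Shank1 had Cbx6 (0.955), Smarcc2 (0.947) and Zc3h7b (0.924), which without the distant library were at 0.91, 0.873 and 0.83. Lower values were found for Dlg3, with Pam (0.878), Myrip (0.872) and AABR07050646.1 (0.835), and for Shank2, with Tet2 (0.784), Oprl1 (0.772) and Ntn4 (0.746). These values are descriptions over libraries that differ in length rho, marker sums and the other properties above, whose part in them was not tested.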

How the data were processed

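The authors deposited a count table and an FPKM table of the same genes; the counts are whole reads per gene and the FPKM values are the authors' normalized values. HISAT2 2.0.5, StringTie 1.3.3b, featureCounts 1.5.0-p3 and the build rn6 are named in the submitters' processing notes, with no roles or settings, and no source used here says whether counting used strand. Counts were tested as deposited with edgeR 4.0.16 (TMM scaling, filterByExpr by group, 1 coefficient per group over 28 libraries, robust quasi-likelihood F test, 21 residual degrees of freedom). P-values were adjusted by Benjamini and Hochberg over 17404 genes and called under 0.05; standard errors and intervals were derived from the F statistic. CPM is TMM-scaled, and log2 CPM used a prior count of 0.5. Correlations used two-sided permutation tests adjusted within their family (36 and 45 relations; NumPy 2.4.6). Alternatives used DESeq2 1.42.0 and limma 3.58.1. The tests were also tried on simulated data.

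The members and lists were chosen with earlier results of these data known. All 9 members were named in every comparison, and from the lists the called genes and the 3 with the smallest p for any difference; likeness took the 3 genes with the highest r. Grouping followed the treatment labels. Each of the 28 count columns was used. Counting error is small at these depths except for the second Shank2 record.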

Additional observations from a re-analysis of the deposited data

Results flagged for a closer look

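In 7 of 70 combinations of record and group, 1 library lay far from the other 3 by Dixon's criterion (a gap above the critical share of the group's range). The value given is that share of the range. The criterion flags about 1 in 20 among independent, normally distributed values. The 70 combinations reuse the same 28 libraries in related genes and include the sparse second Shank2 record. Therefore 7 of 70 cannot be judged against that rate. With both drugs at 1 mg/kg, the third library was highest for Dlg4 (0.867; 1304 CPM against 1048 to 1082) and for Dlgap3 (0.858; 778 against 589 to 616 CPM). Shank1 was highest in the distant library of the group given both drugs at 3 mg/kg (0.969; 3383 against 1286 to 1351 CPM) and in the fourth library with ketanserin at 1 mg/kg (0.963; 1972 against 1504 to 1522 CPM). Shank3 was lowest in the first library with psilocybin at 3 mg/kg (0.857; 172 against 264 to 279 CPM). The second Shank2 record was highest in the fourth library with ketanserin at 1 mg/kg (0.927, 2.94 CPM against at most 0.215). It was also highest in the fourth with psilocybin at 1 mg/kg (0.374 CPM), where the others at 0 fix the share at 1.0. The third library with both drugs at 1 mg/kg and the first with psilocybin at 3 mg/kg also had among the 5 lowest length rho values, and the fourth with ketanserin at 1 mg/kg and the distant library among the 5 highest.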

How the results depend on the processing

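Members called stayed at 0 in all 19 comparisons under RLE scaling, library totals without a scaling factor, no low-count filter, DESeq2, each library left out, and the length term added after seeing the data. With only the groups compared it was 0 in the 18 comparisons that can be so limited, where the second Shank2 record gave no value in 15. Voom with quality weights called 1 of 10 records with both drugs against ketanserin at 1 mg/kg (Dlg4, -0.36), against 21 of 17404 genes. In the interaction at 1 mg/kg it called 2 of 10 (Dlg4, -0.57, and Dlgap3, -0.65), against 1200 of 17404 genes. A fold change whose 95% interval includes 0 was given no direction. By sign alone, 205 of 1720 values differed with 1 library left out, 52 of 180 with the length term, 39 of 180 under voom and 21 of 180 without the distant library. The cause was not tested.

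Genes called over the whole table moved as follows. DESeq2 called 3 with psilocybin 1 mg/kg against vehicle, 1 each with ketanserin 1 mg/kg, ketanserin 3 mg/kg and both drugs 1 mg/kg against vehicle, and 4 with the pooled combination. It called 1 each for the combination against psilocybin at 1 and 3 mg/kg, 5 for the combination against ketanserin at 3 mg/kg, 6 for psilocybin 3 against 1 mg/kg and 15 for any difference. Voom called 331 for the combination against psilocybin at 1 mg/kg, 21 against ketanserin at 1 mg/kg, 92 for psilocybin 3 against 1 mg/kg and 1200 in the interaction at 1 mg/kg. It called 1 each for psilocybin 1 mg/kg against vehicle, the combination against ketanserin at 3 mg/kg, the combination at 3 against 1 mg/kg, the interaction at 3 mg/kg and any difference, and 0 for the combination at 3 mg/kg and pooled against vehicle. The 1 gene of those last comparisons was also lost (0) without the low-count filter and with the length term, and in the pooled one without the distant library and with only the groups compared; any difference gave 1 without that library. With only the groups compared, ketanserin 1 mg/kg and both drugs 1 mg/kg gave 2 each against vehicle. The same fit gave 1 each for psilocybin 1 and 3 mg/kg and ketanserin 3 mg/kg against vehicle and for the combination against psilocybin and ketanserin at 3 mg/kg. The length term gave 5 for psilocybin 3 against 1 mg/kg. Leaving out 1 library gave 0 to 4 genes for psilocybin 3 against 1 mg/kg, 1 to 3 for any difference and 0 to 1 in every other comparison.

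Of the 36 member pairs 28 had an adjusted p under 0.05 without the distant library and 22 without the 2 most extreme libraries (permutation tests). Within groups 30 did, and 29 on unscaled totals. Of the 45 relations with library properties 27 did in each of the first 2 settings. Shares over all genes at this threshold were not computed for these counts. No paired analysis was possible because the labels number no replicates. With 4 libraries a group, intervals reaching 1.03 log2 units to either side for Dlg2 against vehicle, and 1.45 in the interactions, limit what could be detected.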
